A study of Mus musculus with 5 samples.

Results

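The comparison set untreated 3T3-L1 cells on day 6 of adipogenic differentiation against untreated cells on day 3. Its members were all cell barcodes of these 2 libraries in which 500 genes or more were detected and no more than 20% of the UMIs (unique molecular identifiers, each counting 1 captured RNA molecule) came from mitochondrially encoded genes. This gave 3596 cells on day 3 and 2468 on day 6, together 6064 of the 16713 cells that passed the same limits in the 5 libraries of the study. 3T3-L1 is an established line of mouse fibroblasts that can turn into fat cells, and the study followed it through differentiation by single-cell RNA sequencing with and without P-G3, a polycationic PAMAM polymer. Both cultures compared here were induced at confluence with dexamethasone (a glucocorticoid), insulin and IBMX (3-isobutyl-1-methylxanthine, which raises cAMP) for 2 days, were then kept in insulin, were dissociated with trypsin and never received P-G3. The labels call the cells of day 3 immature adipocytes and adipocytes, and list a lipogenic adipocyte as well on day 6. The remaining libraries were undifferentiated cells on day 0 and cultures that had 10 µg/mL of P-G3 from day 0, taken on day 3 and on day 6. There was 1 library a side, so no difference has a replicate check and no test was made. Ratios compare these libraries, and every interval below is a 95% interval for counting error only.

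Adipogenesis in this line starts with a hormonal pulse that induces the transcription factors C/EBPβ and C/EBPδ, passes through a few rounds of cell division, and then turns on PPARγ and C/EBPα, which maintain each other and switch on the genes of the fat cell. Later in the course, cells fill with triglyceride droplets, import glucose under insulin control, secrete adipokines and replace the matrix of a fibroblast by a basement membrane. Cells of one dish do not move in step, so that a culture holds fat cells and unconverted fibroblasts side by side.

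The kept cells held 139767386 UMIs on day 3 and 88432894 on day 6. The libraries differed in barcodes of low content, since 97.4% of 3693 barcodes were kept on day 3 and 46.7% of 5282 on day 6, where 2606 had under 500 genes. Kept cells under 10000 UMIs made up 5.65% on day 3 and 37.6% on day 6 but held only 2.58% of the day 6 UMIs, and the median per kept cell was 34720.5 and 34214.5 UMIs. The median mitochondrial share was 6.29% and 6.03%. The 2 libraries shared 2 kept barcodes. The files give no cell types and no doublets were removed. Markers of other cell types were at or near 0: the 8 endothelial markers summed to 0.580 and 1.36 CPM (counts scaled to 1000000 UMIs in the kept cells) with Kdr, Tie1 and Erg at 0 in both libraries, and the 12 leukocyte markers to 4.99 and 3.86 CPM with Ptprc, Adgre1, C1qa, Tyrobp and Cd3e at 0 in both. The 8 skeletal muscle markers summed to 9.32 and 32.9 CPM with Myod1, Myog and Myf5 at 0 in both, the difference being mostly that of the intermediate filament gene Des, from 5.05 to 29.0 CPM. The 10 bone and cartilage markers summed to 105 and 106 CPM, mostly Sox9 and Spp1, and the 10 epithelial and neuronal ones to 2.88 and 11.3 CPM. Levels below are CPM of UMIs summed over the kept cells of a library, and a ratio is log2((CPM + 1) / (CPM + 1)) of day 6 to day 3. In such sums, fewer cells of a type and less RNA per cell cannot be told apart.

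Among the 5936 genes that reached 20 CPM on one day or both, 464 (7.82%) stood at least 2-fold higher on day 6, and 300 (5.05%) stood 2-fold or more lower. At 4-fold the numbers were 107 and 69, and at 8-fold 27 and 4. The median ratio of these genes was 0.07. Leaving Fabp4, the mitochondrially encoded genes and the ribosomal protein genes out of the library totals (the reduced total) gave 455 higher and 472 lower with a median of -0.04 over the 7216 genes that then passed the limit, so that the split between directions depends on the scaling. Lists of genes are described below over members that reached 5 CPM on one day or both, against a background of 9583 such genes of which 6.97% were 2-fold or more higher and 5.92% were 2-fold or more lower, with a median of 0.05.

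**Figure D1:**
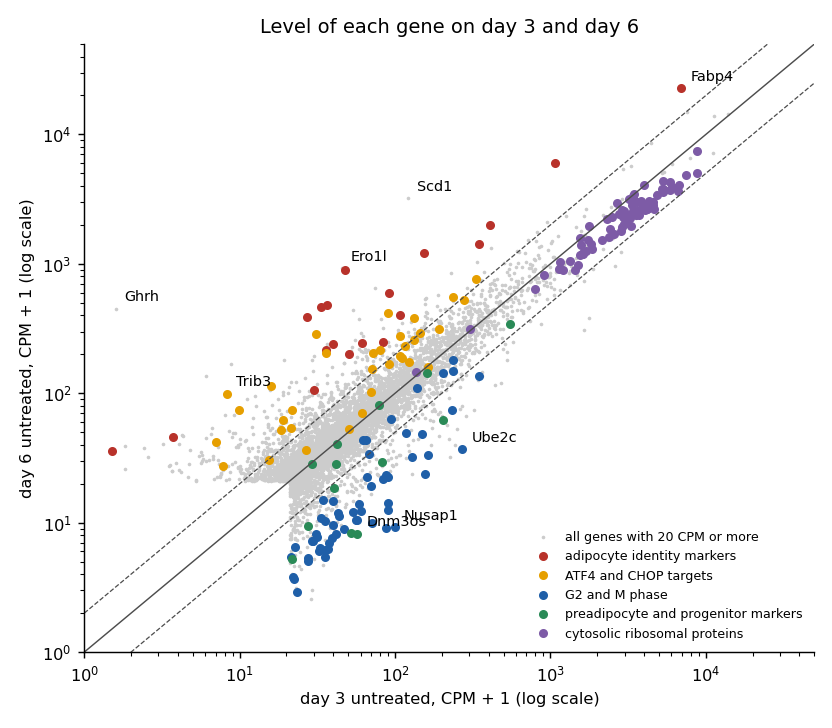
Level of each gene that reached 20 CPM, on day 3 (x axis, CPM + 1, log scale) and day 6 (y axis, CPM + 1, log scale), 1 point per gene, with dashed lines at 2-fold and the members of selected lists coloured. Adipocyte genes lie mostly above the upper line, and genes of G2 and M phase mostly below the lower line. Counted from 5 CPM, and so including genes not drawn, 20 of 21 were at least 2-fold higher and 68 of 76 at least 2-fold lower.

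The redistribution was concentrated in few genes on the gaining side. Altogether 17.1% of UMIs would have to change gene to turn the day 3 profile into that of day 6, and the 15 genes with the largest gain took 29.7% of it, whereas the 15 with the largest loss gave 19.8%. The largest gain was that of Fabp4, the fatty acid carrier of fat cells, with 6964 CPM on day 3 and 22929 on day 6. Next came the mitochondrial gene mt-Co1 (7553 to 14950.4), lipoprotein lipase Lpl (1074 to 5968), the second fatty acid carrier Fabp5 (4451 to 8608) and the stearoyl-CoA desaturase Scd1 (121 to 3210.3). The glycolytic genes Gapdh (2944 to 5419.9) and Aldoa (945 to 2122) and the acyl-CoA binding protein Dbi (1257 to 2347) also stood among them. The losing side was led by the ferritin heavy chain Fth1 (11185 to 7150.3), 12 ribosomal protein genes, the intermediate filament gene of fibroblasts Vim (2593 to 954) and the calcium-binding protein S100a6 (2848 to 1227).

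Transcriptional regulators of adipogenesis had a smaller median ratio than the fat cell markers given below. Of 25 measured, 21 were higher, 8 of them at least 2-fold, and 1 was at least 2-fold lower, with a median of 0.33. Pparg, the central regulator, stood at 14.4 CPM on day 0, 82.1 on day 3 and 248 on day 6 (ratio of day 6 to day 3 1.58), and Cebpa, which it maintains, at 1.53, 29.2 and 104 (1.81). Klf15, a Krüppel-like factor induced by glucocorticoids and active late in fat cell differentiation, had the largest ratio of the list, from 2.23 to 39.4 CPM (3.65). Nr1h3, the oxysterol receptor LXRα, went from 24.2 to 75 CPM (1.59), and Thrsp, a nuclear protein tied to lipogenesis, from 14.0 to 64.4 (2.12). The member lower by 2-fold was Klf5, an early factor of the cascade, at 42.6 and 13.6 CPM (-1.58). Among 20 measured factors that oppose adipogenesis, 12 were lower and 3 at least 2-fold lower, with a median of -0.25. Dlk1, the preadipocyte surface protein Pref-1, stood at 547 and 342 CPM (-0.68), short of 2-fold. Sox9, a factor of undifferentiated mesenchymal cells, stood at 58.0 and 26.7 (-1.09), whereas Irx3, a homeobox gene, was higher at 10.1 and 24.7 (1.21).

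The genes that mark a finished fat cell were higher. All 21 measured members of the identity list were higher, 20 of them at least 2-fold, and the median was 2.58. Slc2a4 encodes the insulin-regulated glucose transporter GLUT4 and stood at 0.00630 CPM on day 0, 2.73 on day 3 and 44.7 on day 6. Adipoq, which encodes the hormone adiponectin, had 32.6 CPM on day 3 and 459 on day 6 (3.78). Ffar4, a receptor for long-chain fatty acids, was nearly undetected on day 3 at 0.508 CPM and reached 34.7 on day 6 (4.57). Mrap, the accessory protein that carries the corticotropin receptor to the surface, went from 26.2 to 388 CPM (3.84), and Adig (adipogenin), a small membrane protein of fat cells, from 35.6 to 483 (3.72). The member with the highest level, Fabp4, had a ratio of 1.72, and had stood at 30.4 CPM on day 0 and 6964 on day 3.

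Several genes outside these lists stood among the 25 highest ratios. Plaat3, a phospholipase of fat cells also called AdPLA, had 72.8 CPM on day 3 and 648 on day 6 (3.14). Aoc3, a surface amine oxidase abundant on adipocytes, went from 10.1 to 89.2 CPM (3.02), and within the range of 1000 to 3000 CPM of the adipocyte panel defined further on it still stood at 15.5 and 103. Adhfe1, a mitochondrial dehydrogenase of hydroxy acids, had 5.6 and 53 CPM (3.03), with 17.8 and 56.7 in that range. Gpt2, the mitochondrial alanine transaminase, had 14.8 and 106 CPM (2.76), and Gpcpd1, which releases glycerol 3-phosphate from a phospholipid breakdown product, 35.7 and 239 (2.71). Reep6, a shaping protein of the endoplasmic reticulum, went from 8.24 to 66.5 CPM (2.87).

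**Figure D2:**
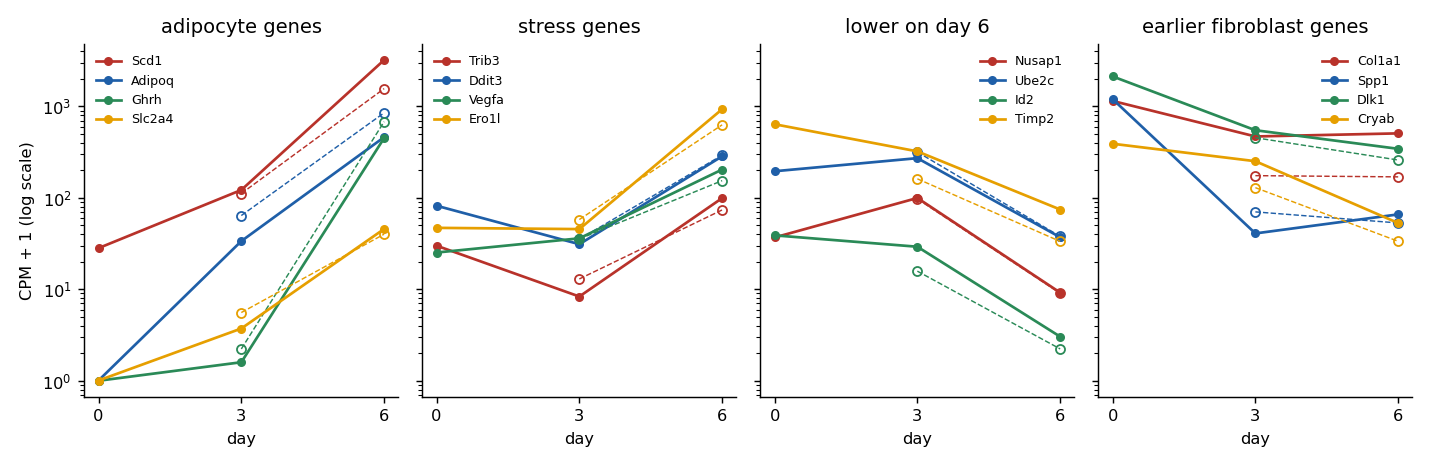
Level (y axis, CPM + 1, log scale) of 16 genes on days 0, 3 and 6 (x axis) in untreated libraries (filled symbols, solid lines) and in libraries with P-G3 (open symbols, dashed lines), 1 library per point. Ghrh lies at 0 CPM on day 0, 0.594 on day 3 and 449 on day 6 untreated, while Id2 goes from 28.2 to 2.04 CPM between day 3 and day 6.

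Lipid synthesis was broadly higher. Of 25 measured genes of fatty acid synthesis and desaturation, 24 were higher and 16 at least 2-fold, with a median of 1.13. Fasn, the fatty acid synthase itself, stood at 103 CPM on day 3 and 292 on day 6 (1.5), well below the ratio of Scd1, which desaturates its product (4.72). The second desaturase, Scd2, went from 338 to 1036 CPM (1.61), Elovl1, which lengthens saturated fatty acids, from 56.2 to 188 (1.72), and the mitochondrial citrate exporter Slc25a1 from 109.8 to 351 (1.67). Me1, malic enzyme, a source of NADPH for this pathway, had 41.0 and 121 CPM (1.54). In triglyceride assembly 14 of 16 genes were higher and 7 at least 2-fold, with a median of 0.87. Gpd1, which makes the glycerol 3-phosphate backbone, went from 18.3 to 180.0 CPM (3.23), and the acyltransferases of the last step, Dgat2 (39.0 to 239, 2.58) and Dgat1 (61.2 to 235, 1.93), were both higher.

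Storage and release of fat moved in the same direction as synthesis. Of 17 lipid droplet genes, 12 were higher and 6 at least 2-fold, with a median of 0.66. Cidec, which fuses droplets, had 90.7 CPM on day 3 and 599 on day 6 (2.71), and Plin1, the coat of large droplets, 35.1 and 216 (2.59), whereas Plin4, which coats small new droplets, went only from 91.1 to 173 (0.91). Bscl2, which encodes seipin, a protein of droplet formation, stood at 5.89 and 20.6 CPM (1.65). Lipolysis had 15 of 16 genes higher, 9 at least 2-fold, with a median of 1.96. Its enzymes act in sequence, and all 3 were higher: Pnpla2, the first lipase, at 106 and 404 CPM (1.92), hormone-sensitive lipase Lipe at 49.3 and 199 (1.99), and monoglyceride lipase Mgll at 5.03 and 44.3 (2.91). The brakes on the pathway were higher as well, namely G0s2, an inhibitor of the first lipase, at 409.5 and 1986 CPM (2.27), and Pde3b, the phosphodiesterase through which insulin lowers cAMP, at 8.70 and 38.8 (2.03). Fatty acid uptake had 11 of 13 genes higher and 5 at least 2-fold (median 0.90), among them the transporter Cd36 at 60.1 and 242 CPM (1.99).

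Cholesterol genes were higher together. Of 24 measured genes of sterol synthesis and other targets of SREBP2, the sterol-sensing transcription factor, 23 were higher and 14 at least 2-fold, with a median of 1.13. Insig1, which retains SREBP in the endoplasmic reticulum when sterol is ample, went from 18.0 to 101 CPM (2.43), and Idi1, an isomerase of the isoprenoid steps, from 46.3 to 169 (1.85). Hmgcs1, which makes the HMG-CoA that enters the pathway, stood at 63.9 and 208 CPM (1.69). Genes of cholesterol export and lipoprotein proteins were also higher, 14 of 16 with 9 at least 2-fold (median 1.25), such as the exporter Abca1 (25.9 to 73.8 CPM, 1.48), the HDL receptor Scarb1 (17.6 to 61.1, 1.74) and apolipoprotein Apoc1 (5.07 to 135, 4.49). The promoter of Hmgcs1 is shown because it was the only one of the 17 cholesterol genes with a RefSeq promoter in which TCACNCCAC, a form of the sterol regulatory element, was found on either strand (5.88%, against 1.22% of all 27025 genes with a promoter of the same length). It holds the 250 bases before the transcription start, GRCm38.p6, chr13:119690101-119690350, plus strand, with the match in capitals 137 bases before the start.
Hmgcs1: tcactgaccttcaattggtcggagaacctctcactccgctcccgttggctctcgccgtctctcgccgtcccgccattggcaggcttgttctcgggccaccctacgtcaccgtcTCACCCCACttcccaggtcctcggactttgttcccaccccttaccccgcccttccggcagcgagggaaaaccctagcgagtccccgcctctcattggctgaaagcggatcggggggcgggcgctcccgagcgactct

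Secreted products of fat cells contained the gene with the largest ratio of all. Of 28 measured adipokines and secreted proteins, 22 were higher, 19 at least 2-fold, and 2 at least 2-fold lower, with a median of 1.76. Ghrh encodes the growth hormone-releasing hormone of the hypothalamus (ENSMUSG00000027643, GRCm38 chromosome 2, 157329497 to 157347506, minus strand). It had no UMI on day 0, 0.594 CPM on day 3, from 83 UMIs, and 449 CPM on day 6, from 39748 UMIs, a log2 ratio of 8.14. The interval of its ratio without the pseudocount was 9.25 to 9.89, so that the pseudocount lowers this value. Under P-G3 it stood at 1.23 CPM on day 3 and 679 on day 6. Cdsn, which encodes corneodesmosin, an adhesion protein of skin, had 7.78 and 168 CPM (4.27), and Rarres2, which encodes the adipokine chemerin, 52.6 and 443 (3.05). Cfd, the protease adipsin of the complement pathway, went from 46.9 to 902 CPM (4.24), Retn (resistin) from 152 to 1219 (2.99), and the vasoactive peptide gene Apln (apelin) from 7.0 to 66.7 (3.08). Members that were lower included the chemokines Ccl2 (20.9 to 10.1 CPM, -0.98) and Cxcl12 (311 to 234, -0.41). Acute phase and complement genes, which overlap with this list, were higher in 11 of 12 with a median of 1.38, for example complement C3 (229.8 to 842 CPM, 1.87) and haptoglobin, Hp (18.0 to 96.3, 2.36).

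Receptors for hormones and lipids showed no common direction, with 10 of 18 higher, 5 by 2-fold or more, and 2 lower by 2-fold or more (median 0.18, and -0.18 when cells rather than UMIs were weighted equally). Beside Ffar4, the short-chain fatty acid receptor Ffar2 was higher (1.42 to 36.5 CPM, 3.96), and the platelet-derived growth factor receptor of progenitors, Pdgfra, was lower (81.4 to 28.2, -1.5). Insulin and IGF signalling had 16 of 25 genes higher and 6 at least 2-fold (median 0.23), among them the insulin receptor Insr (13.4 to 35.7 CPM, 1.35), its substrate Irs2 (19.7 to 47.1, 1.22) and the IGF-binding protein Igfbp4 (155 to 536, 1.78). Targets of glucocorticoid and cAMP, the agents withdrawn after 2 days, were divided, 12 of 22 being higher, 5 by 2-fold or more, and 4 lower by 2-fold or more, with a median of 0.10. Lower were the classic glucocorticoid targets Tsc22d3, also called Gilz (129.9 to 42.8 CPM, -1.58), the chaperone Fkbp5 (262 to 111, -1.23) and the kinase Sgk1 (50.7 to 18.9, -1.38). Higher were Hsd11b1, the enzyme that regenerates active glucocorticoid (22.1 to 121 CPM, 2.39), and Lpin1, a phosphatase of triglyceride assembly (28.4 to 95.8, 1.72). Caveolae, the surface pits that are dense on fat cells, had 7 of 8 genes higher and none at 2-fold, with a median of 0.54. Cav1, their main coat protein, had 387 and 423 CPM (0.13) and changed sign to -0.04 when cells were weighted equally.

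Most genes of mitochondrial metabolism were higher, by amounts that differed between its groups. The genes encoded in the mitochondrion itself were mixed, with 9 of 13 higher and 3 at least 2-fold (median 0.28), and mt-Nd5, a subunit of complex I, went from 343 to 776 CPM (1.18). Of 73 nuclear-encoded genes of the respiratory chain, 69 were higher but only 3 at least 2-fold, a smaller share than in the background, and the median was 0.44. The exception in size was Cox7a1, a subunit of cytochrome oxidase that is used in muscle and brown fat, which had 0.830 CPM on day 3 and 38.1 on day 6 (4.42). The citric acid cycle and pyruvate entry had 31 of 32 genes higher and 8 at least 2-fold (median 0.68), with Pcx, which turns pyruvate into oxaloacetate, at 193 and 441 CPM (1.19), and Idh3a, a subunit of isocitrate dehydrogenase, at 146 and 316 (1.11). In β-oxidation 21 of 23 genes were higher and 4 at least 2-fold (median 0.55). Breakdown of branched-chain amino acids, a fuel of mature fat cells, had 23 of 24 genes higher and 11 at least 2-fold (median 0.86). Dbt, the core of the branched-chain ketoacid dehydrogenase, went from 11.5 to 94.3 CPM (2.93), and Bcat2, the mitochondrial transaminase that opens the pathway, from 59.3 to 290.2 (2.27). Only 8 of 21 thermogenic genes reached 5 CPM, of which 7 were higher and 4 at least 2-fold (median 1.55), led after Cox7a1 by the potassium channel Kcnk3 (15.1 to 79.6 CPM, 2.32).

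Glycolysis and glucose uptake had 23 of 25 genes higher and 11 at least 2-fold, with a median of 0.93. Hk2, the hexokinase of insulin-responsive tissues, stood at 61.3 CPM on day 3 and 278 on day 6 (2.16), and Slc2a1, the glucose transporter GLUT1, at 25.8 and 75.8 (1.52). Gbe1, which branches glycogen, had 8.99 and 39.6 CPM (2.02). The pentose phosphate genes, which supply NADPH, were higher in 9 of 11 with a median of 0.77, for example transketolase, Tkt (122 to 276, 1.16).

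Targets of ATF4 and CHOP, the transcription factors of the integrated stress response, were higher as a group. Of 38 measured, 37 were higher and 24 at least 2-fold, with a median of 1.35. Ddit3, which encodes CHOP, stood at 81.0 CPM on day 0, 30.1 on day 3 and 284 on day 6 (ratio of day 6 to day 3 3.193). The interval of its ratio without the pseudocount was 3.188 to 3.283. Trib3, a pseudokinase induced by CHOP, went from 7.33 to 98.3 CPM (3.57), Chac1, which degrades glutathione, from 6.02 to 40.9 (2.58), and Ppp1r15a, which restores translation by dephosphorylating eIF2α, from 8.96 to 72.7 (2.89). The amino acid transporter Slc7a5 had 15 and 113 CPM (2.83), and the mitochondrial folate enzyme Mthfd2 only 189.5 and 313 (0.72). Chaperones and folding enzymes of the endoplasmic reticulum had no such shift, with 21 of 36 higher, 8 at least 2-fold and a median of 0.14, which became -0.19 when cells were weighted equally. Those that were higher included Ero1l, the oxidase that drives disulfide formation (44.5 to 930.4 CPM, 4.36), the transcription factor Xbp1 (62.9 to 220.3, 1.79) and Derl1, a channel component for export of misfolded proteins (83.7 to 214, 1.34). Heat shock and cytosolic chaperones were lower in 14 of 22 (median -0.13, and 0.07 with cells weighted equally), with Cryab, a small heat shock protein, at 250.4 and 52.0 CPM (-2.25).

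Hypoxia targets were higher in 27 of 29 with 18 at least 2-fold and 1 at least 2-fold lower, and a median of 1.19. Vegfa, the angiogenic growth factor, stood at 35.1 CPM on day 3 and 203 on day 6 (2.50), and Egln3, one of the oxygen-sensing prolyl hydroxylases, at 19.9 and 112 (2.43). Bnip3, a receptor for removal of mitochondria, had 80.7 and 372 CPM (2.19), and Pdk1, a kinase that shuts pyruvate out of the citric acid cycle, 27.1 and 94.1 (1.76). The member lower by 2-fold was Anln, which encodes anillin of the dividing cell's cleavage furrow (32.2 to 9.78, -1.62). Glycolytic genes occur in this list as well, so that the groups are not independent. NRF2 targets and antioxidants were higher in 28 of 37 and at least 2-fold in 6 (median 0.32), among them the haem oxygenase Hmox1 (66.4 to 214 CPM, 1.67) and the carbonyl reductase Cbr1 (61.3 to 206, 1.73).

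Promoters of the stress and hypoxia groups were searched for the core motifs of their transcription factors in the 250 bases before the transcription start (RefSeq, GRCm38.p6), on both strands. TGATGNAA, a form of the composite element bound by ATF4 with a C/EBP partner, was present in 9 of 32 ATF4 and CHOP targets with a promoter sequence (28.1%), against 3.91% of all 27025 genes with one and 2.13% of the 4793 of these with at least 20 CPM. ACGTG, the core of the element bound by hypoxia-inducible factors, was present in 17 of 24 hypoxia targets (70.8%), against 18.5% of all and 26.9% of measured genes. A match is a run of letters and not a tested site. Shown are Chac1 (chr2:119350992-119351241, plus strand, match 193 bases before the start), Egln3 (chr12:54203875-54204124, minus strand, 229 bases) and Bnip3 (chr7:138909507-138909756, minus strand), as members with ratios above 2 in which the motif occurs. Capitals mark the match, which in Chac1 lies on the opposite strand and so reads as the reverse complement, and which in Bnip3 is a pair of matches on opposite strands that overlap, at 108 and 107 bases.
Chac1: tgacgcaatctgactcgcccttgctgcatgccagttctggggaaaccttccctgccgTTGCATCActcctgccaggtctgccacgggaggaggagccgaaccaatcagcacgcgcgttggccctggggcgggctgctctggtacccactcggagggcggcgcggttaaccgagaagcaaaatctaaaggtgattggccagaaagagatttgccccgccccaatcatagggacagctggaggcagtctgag
Egln3: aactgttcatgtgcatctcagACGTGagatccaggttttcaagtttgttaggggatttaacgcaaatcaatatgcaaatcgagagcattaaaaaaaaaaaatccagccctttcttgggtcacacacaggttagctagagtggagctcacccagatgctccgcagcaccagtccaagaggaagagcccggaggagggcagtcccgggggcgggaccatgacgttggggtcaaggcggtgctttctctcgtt
Bnip3: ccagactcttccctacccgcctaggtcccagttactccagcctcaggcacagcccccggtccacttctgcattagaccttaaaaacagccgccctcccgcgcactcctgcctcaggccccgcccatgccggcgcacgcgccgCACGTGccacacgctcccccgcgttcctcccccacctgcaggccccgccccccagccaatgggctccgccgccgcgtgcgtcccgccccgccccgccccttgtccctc

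Immediate early genes, which answer to growth factors and also to handling of cells, had 16 of 25 higher, 4 by 2-fold or more, and 2 lower by 2-fold or more (median 0.12, and -0.15 with cells weighted equally). Fosl1, an AP-1 subunit, was higher (13.4 to 72.4 CPM, 2.35), as was Btg2, an antiproliferative gene (16.6 to 89.2, 2.36), while Jun was slightly lower (43.4 to 35.3, -0.29). The 9 genes kept as signs of dissociation had a median of 0.04, which was -0.15 with cells weighted equally, -0.06 with the reduced total and -0.03 without the 5% of cells with most UMIs.

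Genes of cell division were lower. All 76 measured genes of G2 and M phase were lower, 68 of them at least 2-fold, with a median of -2.04, and 56 of 58 genes of S phase, 39 at least 2-fold, with a median of -1.26. Ube2c, the ubiquitin-conjugating enzyme of the anaphase-promoting complex, stood at 194 CPM on day 0, 270.5 on day 3 and 36.1 on day 6 (ratio of day 6 to day 3 -2.87), and Cdc20, the activator of that complex, at 43.6, 52.3 and 11.2 (-2.13). Nusap1, a spindle protein, had 98.6 and 8.20 CPM (-3.44), the mitotic kinesin Kif23 22.3 and 1.93 (-2.99) and cyclin A2, Ccna2, 55.6 and 9.46 (-2.44). In S phase, the helicase subunit Mcm5 went from 52.3 to 13.7 CPM (-1.86), DNA ligase Lig1 from 52.8 to 11.2 (-2.14) and ribonucleotide reductase Rrm2 from 83.6 to 21.4 (-1.92). Among the D-type cyclins, which take cells into the cycle, Ccnd1 was lower (220.2 to 43.2 CPM, -2.32) and Ccnd2 higher (371 to 865, 1.22). Histones were lower in 15 of 17 (median -0.88), such as the linker histone Hist1h1b (241 to 39.0, -2.59). Many histone genes are near-identical copies whose reads the counting could divide between them, so single members are uncertain. Chromatin proteins of growing cells were lower in 22 of 24 (median -0.54), with the architectural factor Hmga2 at 128 and 22.8 CPM (-2.45). The tubulins and microtubule proteins were lower in 12 of 12 (median -0.52), for example Tubb5 (873 to 341, -1.35).

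TTTGAA, the core of the cell cycle homology region found in many late cell cycle promoters, occurred in the 250 bases before the start of 25 of 62 G2 and M phase genes with a RefSeq promoter (40.3%), against 18.3% of all genes with a promoter and 12.4% of measured ones. CCAAT, bound by NF-Y and often found a few helical turns upstream of it, occurred in 46 of 62 (74.2%), against 37.5% and 41.1%. TTTNNCGC, a form of the E2F element, occurred in 10 of 44 S phase genes (22.7%), against 4.94% and 9.24%. Each search covered both strands, and a gene was counted once if any of its promoters held a match. Ube2c (chr2:164769679-164769928, plus strand) and Cdc20 (chr4:118437344-118437593, minus strand) are shown, GRCm38.p6, because their match to TTTGAA, in capitals, lies close to the start, 29 and 18 bases before it. In Ube2c the match is on the opposite strand, so that the capitals are its reverse complement.
Ube2c: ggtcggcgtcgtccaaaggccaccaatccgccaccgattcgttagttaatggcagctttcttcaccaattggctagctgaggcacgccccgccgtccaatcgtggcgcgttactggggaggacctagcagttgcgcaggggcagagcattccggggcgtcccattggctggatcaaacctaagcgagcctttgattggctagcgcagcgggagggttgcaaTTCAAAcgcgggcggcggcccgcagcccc
Cdc20: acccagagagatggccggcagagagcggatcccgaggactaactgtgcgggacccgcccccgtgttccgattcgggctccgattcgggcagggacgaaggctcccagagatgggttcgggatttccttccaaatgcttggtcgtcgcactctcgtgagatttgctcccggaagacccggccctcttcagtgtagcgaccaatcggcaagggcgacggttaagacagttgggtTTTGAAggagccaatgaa

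Over all kept cells, the machinery of protein synthesis was divided by compartment. Of 80 cytosolic ribosomal protein genes, 73 were lower, none by 2-fold, with a median of -0.47. Rplp0, of the stalk of the large subunit, went from 8723 to 5009 CPM (-0.80), and Rps20, of the small subunit, from 6633 to 3634 (-0.87). These genes have many processed copies in the genome that could take part of their reads. Mitochondrial ribosomal proteins were higher in 63 of 78 (median 0.19). They were not higher within ranges of the Fabp4 level, described further on, where their medians were -0.04, -0.15, -0.07 and -0.05. The cytosolic ones had -0.13, -0.29, -0.39 and -0.45 there. Nucleolar genes (21 of 34 lower, median -0.11) and translation factors (20 of 34 lower, median -0.17) differed little, although nucleophosmin, Npm1, was lower (2191 to 1292 CPM, -0.76). Proteasome subunits (22 of 34 lower, median -0.07) and lysosomal genes (23 of 35 lower, median -0.14) stayed close to the median of all genes.

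Genes of the fibroblast were lower over all kept cells, though not as a block. Of 15 measured markers of preadipocytes and progenitors, 14 were lower, 7 at least 2-fold, with a median of -0.90. Osr1, a transcription factor of mesenchymal progenitors, stood at 79.8 CPM on day 0, 51.1 on day 3 and 7.29 on day 6, and Dnm3os, the precursor of a microRNA cluster, at 41.4, 56.2 and 7.23. Prrx1, a homeobox gene of limb and connective tissue mesenchyme, had 203 and 61.6 CPM (-1.71). Among TGF-β and BMP genes 15 of 25 were lower and 8 at least 2-fold (median -0.16), with Id2, an inhibitor of helix-loop-helix factors, going from 28.2 to 2.04 CPM (-3.27) and Id3 from 267 to 78.5 (-1.75). Contractile and actin genes were lower in 26 of 31 (median -0.49), for example smooth muscle actin, Acta2 (571 to 247 CPM, -1.21), and thymosin Tmsb10 (1159 to 622, -0.90). YAP and SRF targets were mixed, 11 of 19 being lower and 6 at least 2-fold (median -0.19), with the matricellular protein gene Ccn1 at 42.2 and 10.6 CPM (-1.89). Chemokine and inflammation genes were lower in 8 of 11 (median -0.51). Outside the lists, S100a4, a calcium-binding protein of motile fibroblasts, went from 1652 to 307 CPM (-2.42), the heparin-binding growth factor Ptn (pleiotrophin) from 1770.0 to 384 (-2.20), and Mgp, an inhibitor of calcification, from 169.9 to 39.0 (-2.10).

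The extracellular matrix was rearranged in both directions. Fibrillar collagens and their assembly factors were lower in 28 of 40, 9 at least 2-fold lower and 2 at least 2-fold higher, with a median of -0.36. Lysyl oxidase, Lox, which crosslinks collagen, went from 201 to 66.0 CPM (-1.59), decorin, Dcn, from 223 to 91.1 (-1.28) and Pcolce, an enhancer of procollagen processing, from 361 to 145 (-1.31). Col1a1, the main chain of type I collagen, was nearly level at 468 and 506 CPM (0.11), and its sign turned with cells weighted equally (-0.23). Col5a3, a chain of type V collagen, was higher (41.8 to 106 CPM, 1.32). Basement membrane genes were higher in 14 of 19 with a median of 0.27, which became -0.15 with cells weighted equally. They included Col15a1, a collagen of the adipocyte's basement membrane (7.57 to 50.004 CPM, 2.57), the laminin receptor Itga6 (51.6 to 226, 2.11) and nephronectin, Npnt (11.0 to 53.4, 2.18), against laminin Lamb2 (33.8 to 14.8, -1.14). The metalloproteinase inhibitors diverged, Timp2 going from 321 to 73.5 CPM (-2.11) and Timp1 from 167 to 61.6 (-1.42), while Timp4 was higher (14.1 to 54.1, 1.86).

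**Figure D3:**
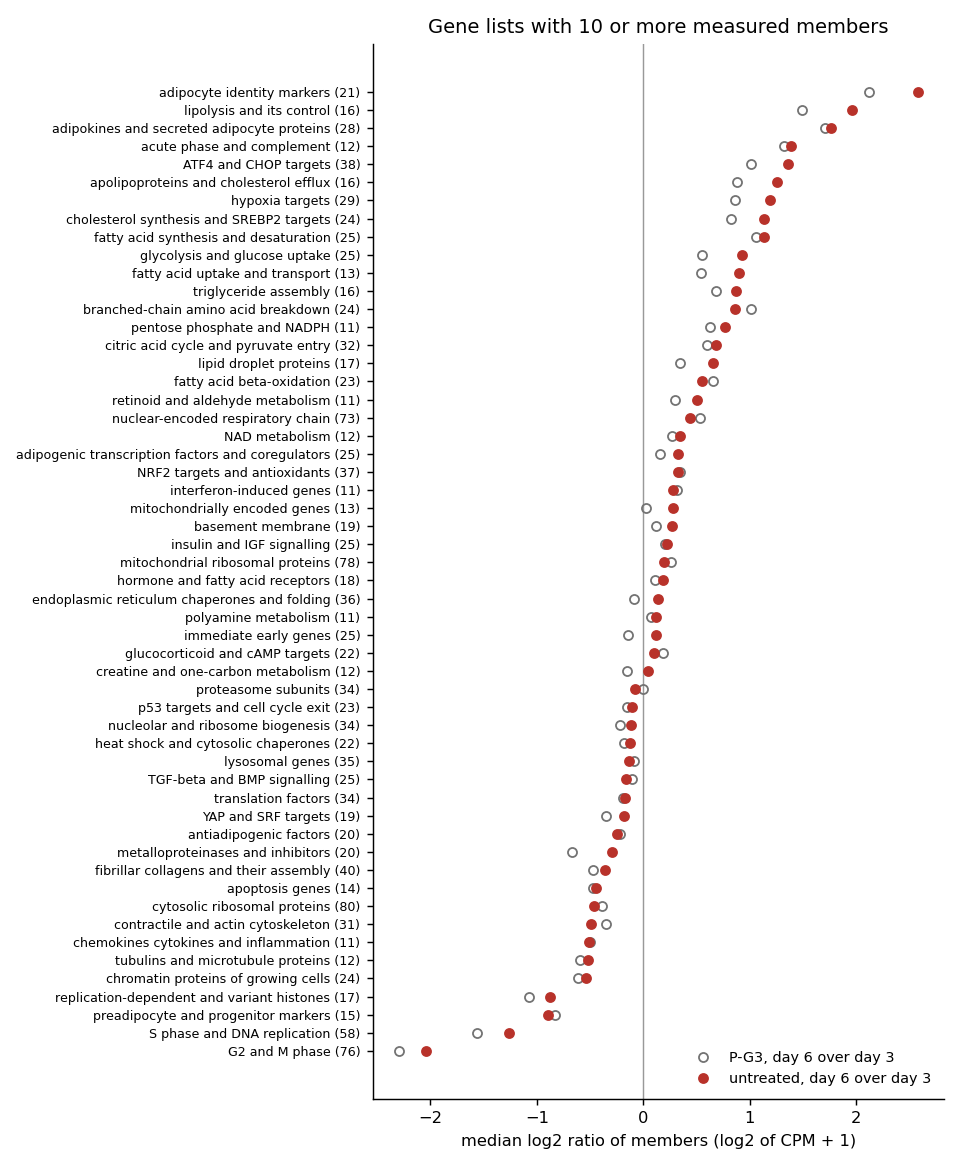
Median log2 ratio of day 6 to day 3 (x axis) for each list with at least 10 measured members (y axis), untreated in filled red and with P-G3 in open grey circles. Adipocyte identity stands at 2.58 and G2 and M phase at -2.04 in untreated libraries, and the respiratory chain at 0.44.

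The pair of libraries with P-G3 gives the same interval of days in other cultures. There 5145 genes reached 20 CPM on one day or both, of which 361 (7.02%) stood 2-fold or more higher on day 6, and 308 (5.99%) stood 2-fold or more lower. Of the 464 genes higher without the polymer, 312 (67.2%) were also at least 2-fold higher with it, which is 86.4% of the P-G3 genes, and of the 300 lower genes 210 (70.0%, or 68.2% of the P-G3 genes) were shared. None of these 464 and 300 genes had the opposite sign with P-G3. The gaps between the pairs were widest for a histone, Hist1h2ap, at -2.10 without and -3.67 with P-G3. Others were Timp4 (1.86 and 0.76), Acta2 (-1.21 and -0.13), Trib3 (3.57 and 2.51), Ero1l (4.36 and 3.44) and Scd1 (4.72 and 3.81). Spp1, which encodes the matrix protein osteopontin, had opposite signs, at 39.8 and 64.9 CPM without P-G3 and 69.2 and 52.1 with it. These differences were not tested. By group, the medians with P-G3 were 2.12 for adipocyte identity (2.58 without), 1.49 for lipolysis (1.96), 0.55 for glycolysis (0.93), 1.01 for ATF4 and CHOP targets (1.35), 0.86 for hypoxia targets (1.19) and -2.29 for G2 and M phase (-2.04). They were 1.01 for branched-chain amino acid breakdown (0.86) and 0.53 for the respiratory chain (0.44), so that these and the genes of division had medians farther from 0 in the libraries with P-G3, and the others in those without it. A smaller ratio did not mean a lower level. The identity genes summed to 9591 and 38121 CPM on day 3 and day 6 without P-G3, and to 14295.5 and 44286.5 with it. Glycolysis genes summed to 8770 and 15684 CPM without it, and to 13904 and 20975 with it. ATF4 and CHOP targets summed to 2971 and 6852 CPM without it, and to 3227 and 6581 with it.

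How far single cells had gone was read from a panel of 4 fat cell genes, Adipoq, Cidec, Plin1 and Retn, whose summed CPM was taken in each cell with at least 10000 UMIs, 3393 on day 3 and 1541 on day 6. Cells over 1000 CPM of the panel made up 6.10% (5.32% to 6.96%) on day 3 and 56.4% (53.9% to 58.9%) on day 6. The cells spread over the whole range on day 6, with 30.8% under 300 CPM, 12.8% between 300 and 1000, 27.5% between 1000 and 3000 and 28.9% over 3000. On day 3 the same ranges held 83.0%, 10.9%, 5.66% and 0.442%, the last being 15 cells. The ranges are cuts of a continuous score and not cell types, and 359 cells on day 3 and 362 on day 6 lay between 500 and 2000 CPM, close to the middle cut. On day 6, 475 of 1541 cells had little of the panel. Adipocyte markers were thus present in both libraries, as the labels state, and the labels name no unconverted cells, although 53.4% of the lowest range on day 3 and 16.8% on day 6 had no UMI of the panel.

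**Figure D4:**
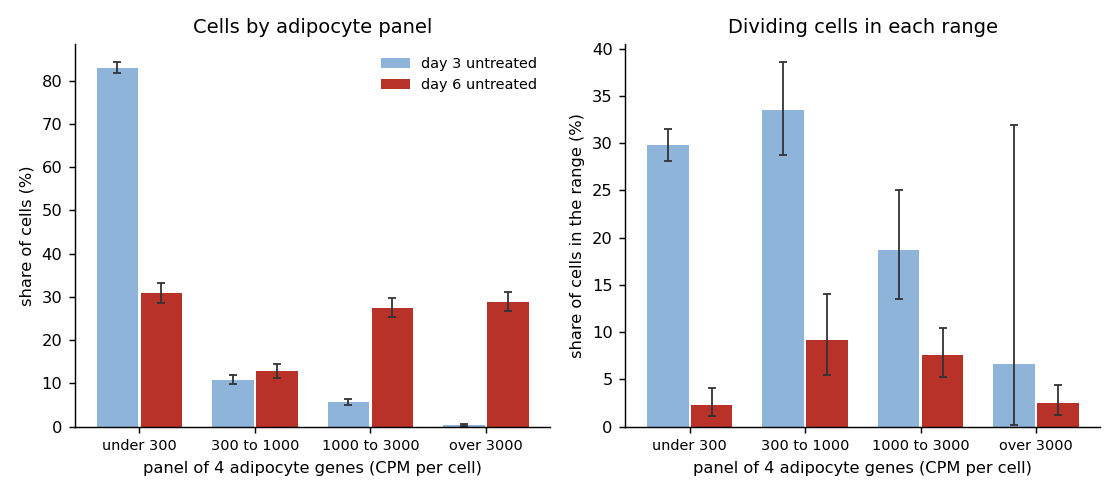
Left, share of cells with at least 10000 UMIs (y axis, percent) in 4 ranges of the summed CPM of Adipoq, Cidec, Plin1 and Retn (x axis) on day 3 and day 6; right, share of dividing cells (y axis, percent) within each range, with 95% Clopper-Pearson bars. Over 3000 CPM lie 0.442% of cells on day 3 and 28.9% on day 6, and dividing cells make up 29.8% and 2.32% of the range under 300.

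Dividing cells, taken as those with at least 1000 CPM summed over a panel of division genes, made up 29.5% (28.0% to 31.1%) of cells on day 3 and 4.67% (3.67% to 5.85%) on day 6. The difference was at least as large in the cells with least of the adipocyte panel, where 29.8% divided on day 3 and 2.32% on day 6. Between 1000 and 3000 CPM of the adipocyte panel the shares were 18.8% and 7.55%, and 37 cells were both dividing and over 1000 CPM on that day against 43 on day 6. Cells near the dividing cut, between 500 and 2000 CPM, numbered 469 and 70. Within dividing cells alone the G2 and M phase genes outside the panel had a median ratio of -0.31, and within the other cells -0.86. Over all cells of this size the value was -2.03, with the panel genes included (76 members). Both groups of cells were cut on division genes, so the values within them depend on that cut.

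Comparison of day 6 with day 3 within a range of the panel shows which groups differ at a similar fat cell level. The match is not exact, since the median panel CPM was 0 on day 3 and 71.8 on day 6 in the lowest range, with 53.4% and 16.8% of cells at 0, and 1547 against 1916 between 1000 and 3000. The respiratory chain, with a median ratio of 0.42 over all these cells, stood at -0.01, -0.07, 0.01 and 0.03 in the 4 ranges from low to high. Lipolysis, at 1.97 over all cells, had 0.27, 0.27, 0.37 and 0.08 for its 15 members outside the panel. The adipocyte identity list, at 2.59 over all cells, had 1.30, 0.69, 0.56 and 0.58 for the 17 members outside the panel. These values depend on the genes that set the ranges. When cells were ranged by Fabp4 in place of the panel, a choice made after seeing the data, lipolysis had 0.75, 0.99, 0.84 and 0.59 with all 16 members, and adipocyte identity had 2.04, 1.32, 1.37 and 0.95 with the 20 members other than Fabp4. Within the range from 1000 to 3000 CPM, Fabp4 had 25523 CPM on day 3 and 24786 on day 6, Cebpa 122 and 118, and Dgat2 246 and 229, so that these genes were level there.

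Stress, hypoxia and glycolysis genes were higher on day 6 within each range. Hypoxia targets had medians of 1.14, 1.03, 0.81 and 1.2 in the 4 ranges (1.19 over all these cells), glycolysis 0.90, 0.74, 0.68 and 0.88 (0.92), and ATF4 and CHOP targets 1.25, 0.75, 0.56 and 0.68 (1.36). When cells were ranged by Fabp4, the hypoxia medians were 1.16, 1.08, 0.92 and 0.75 and those of ATF4 and CHOP targets 1.29, 0.98, 0.91 and 0.67. Ddit3 stood at 25.5 CPM on day 3 and 156 on day 6 in the lowest range and at 55.8 and 282 between 1000 and 3000. Ero1l had 22.9 and 430.0 CPM in the lowest range, and 117 and 1259.7 in the highest. Lipid synthesis had medians of 0.39, 0.32, 0.53 and 0.62 for fatty acid synthesis and 0.10, 0.11, 0.43 and 0.60 for cholesterol genes. With ranges of Fabp4 these were 0.58, 0.93, 0.96 and 0.77 for fatty acid synthesis and 0.36, 0.79, 0.86 and 0.76 for cholesterol genes. Scd1 was higher on day 6 in each range, at 43.5 and 259 CPM in the lowest and 1347 and 5978 in the highest.

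Genes kept as signs of dissociation moved with the ranges too, as did some other groups. The dissociation genes had medians of 0.84, 0.93, 1.44 and 1.61 in the 4 ranges and 0.03 over all cells, and immediate early genes 0.39, 0.56, 0.81 and 1.38. Interferon-induced genes had 0.41, 0.83, 0.90 and 0.99, and cytosolic ribosomal proteins -0.06, -0.14, -0.33 and -0.51. The median over all genes was 0.04, 0.06, 0.12 and 0.20. The part of dissociation in the other results was not tested.

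**Figure D5:**
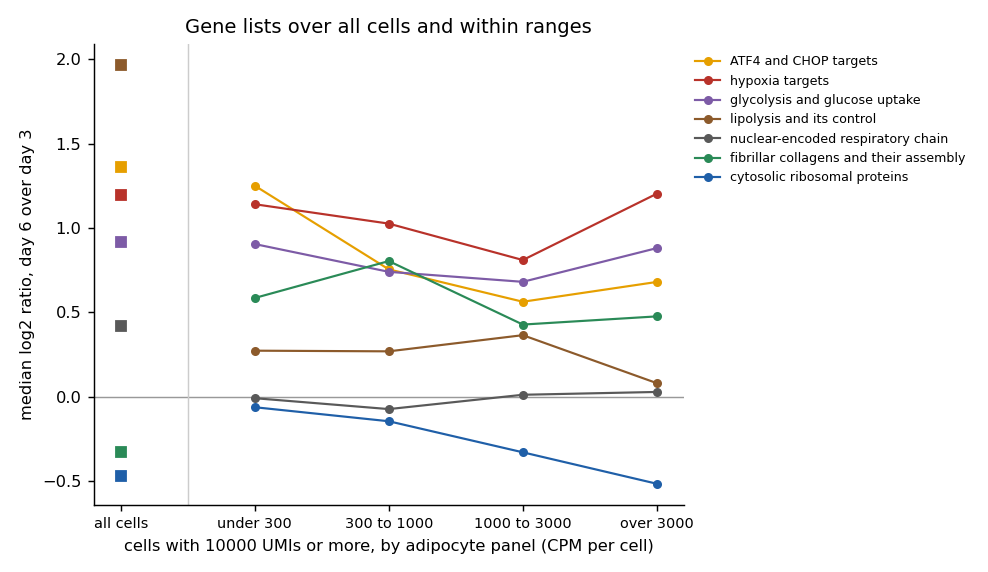
Median log2 ratio of day 6 to day 3 (y axis) for 7 lists over all cells with at least 10000 UMIs (squares) and within 4 ranges of the adipocyte panel (x axis). Hypoxia targets stay between 0.81 and 1.2, lipolysis goes from 1.97 over all cells (16 genes) to at most 0.37 within ranges (15 genes, and at most 0.99 with ranges of Fabp4), and collagens go from -0.33 over all cells to between 0.43 and 0.80.

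The median of the collagen list had the opposite sign within ranges. Collagens and their assembly factors had a median of -0.33 over all cells of this size and of 0.59, 0.80, 0.43 and 0.48 in the 4 ranges (0.54, 0.90, 0.23 and 0.19 with ranges of Fabp4). Col1a1, which was near level over all kept cells (0.11), stood at 607 CPM on day 3 and 1806 on day 6 in the lowest range, at 81.6 and 492 in the next and at 43.1 and 134 between 1000 and 3000. Its level declined across ranges on both days, and the highest range held more of the cells on day 6. Basement membrane genes, at 0.29 over all cells of this size, were higher in each range, with medians of 0.61, 0.55, 0.54 and 0.54. Other lists turned in some or all ranges. For the next 3 lists the panel values leave out the 5% of cells with most UMIs, so that the highest range held 11 cells on day 3. The Fabp4 values and those over all kept cells include these cells. Contractile and actin genes (-0.49 over all kept cells) had 0.09, 0.35, 0.32 and 0.49 by panel. With ranges of Fabp4 they had 0.05, 0.36, -0.02 and 0.08. YAP and SRF targets (-0.19) had 0.02, 0.35, 0.51 and 0.51 by panel, and -0.02, 0.59, 0.21 and 0.16 by Fabp4. Factors that oppose adipogenesis (-0.25) had 0.17, 0.38, 0.56 and 0.31 by panel, and 0.23, 0.40, 0.27 and 0.32 by Fabp4. Preadipocyte markers, at -0.88 over all cells, had 0.03, 0.43, 0.54 and -0.48 (-0.02, 0.38, 0.02 and -0.21 with ranges of Fabp4). Without the 5% of cells with most UMIs, the lowest range gave -0.03 and the highest -0.0046. Pdgfra had 104 and 86.9 CPM in the lowest range. Id2 did not follow this pattern, with 32.4 and 4.50 CPM in the lowest range and 11.9 and 1.49 between 1000 and 3000. Spp1 was higher on day 6 in each range (49.984 to 133 CPM in the lowest, 4.34 to 65.1 between 1000 and 3000), more so than over all cells.

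Among cells that were not dividing and had 1000 to 3000 CPM of the panel, 156 on day 3 and 392 on day 6, the largest ratio was again that of Ghrh, at 1.48 CPM on day 3 and 568 on day 6. Cdsn (8.86 to 206 CPM), Apoc1 (7.38 to 155) and Spp1 (4.23 to 70.9) followed, and Serpinf1, which encodes the secreted factor PEDF, went from 11.6 to 85.8. Notch1, a receptor of cell fate, had 9.64 and 62.4 CPM. Lower at this panel level were Map7d2, a microtubule-binding protein (134 to 8.83 CPM), the transferrin receptor Tfrc (69.5 to 18.3), Nnmt, which methylates nicotinamide (129 to 45.0), and Mpc2, of the mitochondrial pyruvate carrier (1469 to 629). Over all kept cells Tfrc, Nnmt and Mpc2 had ratios of -0.59, -0.29 and 0.18.

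The share of cells with at least 1 UMI of a gene was compared after thinning each cell with at least 10000 UMIs to 10000. Ghrh was seen in 0.236% of cells on day 3 and 30.6% on day 6, where the share was 6.95% in cells under 300 CPM of the panel and 48.8% in those over 3000. Its level differed widely between cells of day 6, with a median of 0, a 90th percentile of 11 and a maximum of 262 UMIs per 10000. Scd1 was seen in 36.9% and 88.5%, Trib3 in 3.36% and 48.0%, and Ero1l in 22.0% and 82.9%. Nusap1 went from 31.5% to 3.31%, Id2 from 19.1% to 1.88% and Col1a1 from 80.4% to 56.3%. Without thinning, the share with Ghrh was 0.501% and 41.7% and that with Fabp4 98.9% and 99.9%. On day 6 Fabp4 was seen in 99.8% of the thinned cells of the lowest range, where its median per cell was 3716 CPM. Free RNA can put UMIs of abundant genes into any droplet, and its part here was not tested. Low levels of abundant fat cell genes in a cell can therefore not be read with certainty as its own expression.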

How the data were processed

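The values are UMI counts per gene and cell barcode, as deposited by the authors, with no normalization. The genome build was GRCm38, and the submitters' processing notes give Cell Ranger 3.1.0, but per the file headers the matrices came from version 5.0.1. The libraries were made with the Chromium 3' protocol, per the labels' protocols, and the matrices list barcodes already called as cells.

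Barcodes with at least 500 genes and at most 20% mitochondrial UMIs were kept. Their UMIs were summed per library and expressed as CPM, with a pseudocount of 1 in log2 ratios. Genes that reached 20 CPM on one day or both were counted where they differed by 2-fold or more, and list members from 5 CPM. The 95% intervals are exact conditional binomial ones for ratios without the pseudocount and Clopper-Pearson ones for shares. A gene at 0 was limited by 3 UMIs, or 0.0215 CPM on day 3 and 0.0339 on day 6. Gene positions came from GENCODE vM21 and promoter sequences from RefSeq (GRCm38.p6), matched by symbol; Scd1, Sqle and Ero1l had none in the table. Promoter windows ended at the base before the start.

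The comparison, the 63 gene lists, the cell panels and the rule for named genes were chosen with earlier results of these data known. Named genes are the 25 highest and 25 lowest ratios of genes that reached 50 CPM and had the same sign under 3 scalings, leaving out mitochondrially encoded and ribosomal protein genes and unnamed models. To these come the 15 largest gains and losses in CPM, up to 6 members of each list that reached 20 CPM and lay farthest from 0, a set of anchor genes, and members against the direction of their list. Genes first named within the range of 1000 to 3000 CPM were chosen after their values were seen. Alternatives were TMM (edgeR 4.0.16, R 4.3.3) and median-of-ratios scaling, other limits on cells and genes, a pseudocount of 0.1, equal weight for each cell and a reduced library total. The scripts (Python 3.11.15, numpy 2.4.6, scipy 1.17.1, pandas 2.3.3) were tested on simulated data. With 1 library a group, no test was made.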

Additional observations from a re-analysis of the deposited data

Results flagged for a closer look

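Spp1, the gene of osteopontin, had ratios of opposite sign in the pair of untreated libraries and the pair with P-G3. Its log2 ratio of day 6 to day 3 was 0.69 without the polymer (39.8 to 64.9 CPM) and -0.40 with it (69.2 to 52.1 CPM). The difference between the pairs was not tested, and there was 1 library a group. In the untreated libraries 93.1% of its day 3 UMIs in cells with at least 10000 UMIs lay in those under 300 CPM of the adipocyte panel, against 44.2% on day 6. That range held 74.3% of the UMIs of all genes in these cells on day 3 and 21.9% on day 6, so the range itself was smaller on day 6.

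Barcodes left out of the comparison carried fat cell RNA. The 2606 day 6 barcodes with under 500 genes held 2555823 UMIs, 2.76% of that library, with a median of 671.5 UMIs and 14.3% mitochondrial UMIs per barcode. Fabp4 made up 19447 CPM of them, against 22929 CPM in the kept cells. Lpl, at 1810 against 5968 CPM, and Adipoq, at 248 against 459, were further below their kept level. Plin2 was close to its own, at 287 against 309. Gm42418, which overlaps ribosomal RNA sequence, stood at 96740 CPM against 5753, and mt-Co1 at 78396 CPM, against 14950.4 in kept cells. CPM are shares of a total, so such high levels lower the CPM of the other genes. Day 3 had 69 such barcodes. The share of this RNA in the kept cells was not tested.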

How the results depend on the processing

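The counts of 464 higher and 300 lower genes became 797 and 691 with no limit on low values, and the lower count 567 with a limit of 5 CPM and 472 with the reduced total. In the other planned settings they stayed between 394 and 668 higher and between 213 and 395 lower. The share of dividing cells was 35.2% and 21.3% on day 3 and 6.94% and 2.40% on day 6 with limits of 500 and 2000 CPM, and that of cells over the adipocyte limit 12.4% and 1.86% on day 3 and 64.6% and 41.1% on day 6. Weighting cells equally reversed the medians of the receptors (-0.18), the endoplasmic reticulum (-0.19), the basement membrane (-0.15), immediate early genes (-0.15) and heat shock genes (0.066), and, from medians under 0.1 in size, those of proteasome subunits (-0.07 to 0.10) and dissociation genes (0.04 to -0.15); the cause was not tested. Of 531 list medians 457 moved by less than 0.1. Of 224 named genes at 2-fold or more, 198 stayed so in every setting and none reversed. Removal of the top 5% of cells by UMIs, added after seeing the data, changed the sign of 5 of 236 medians within panel ranges, each under 0.1 in size before removal. No paired analysis was possible because each group had 1 library. Counting limits a gene at 0 to 0.0215 CPM on day 3 and 0.0339 CPM on day 6, and the highest panel range on day 3 rests on 15 cells.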

Other observations

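Among smaller metabolic groups, genes of retinoid and aldehyde metabolism were higher in 7 of 11, 3 at least 2-fold, with 2 at least 2-fold lower and a median of 0.51, among them the retinal reductase Dhrs3 at 8.04 CPM on day 3 and 48.1 on day 6 (2.44) and the aldehyde dehydrogenase Aldh1a7 at 60.7 and 184 (1.59). In NAD metabolism 9 of 12 genes were higher and 1 at least 2-fold (median 0.35), and Nampt, which makes the precursor of NAD, went from 89.7 to 187 CPM (1.05). Polyamine genes were near the background, higher in 8 of 11 and at least 2-fold in 1 (median 0.12), with the acetyltransferase Sat1 at 134 and 276 CPM (1.04). Creatine and one-carbon genes were also near it, higher in 7 of 12 and at least 2-fold in 1, with a median of 0.05, which was -0.05 with the reduced library total. Apoptosis genes were lower in 10 of 14 and none by 2-fold (median -0.44), for example Bax at 235 and 147 CPM (-0.68).

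Interferon-induced genes were divided. Of 11, 8 were higher and 2 at least 2-fold lower, with a median of 0.28. The lower ones were the membrane proteins Ifitm3 (522 to 180.5 CPM, -1.53) and Ifitm2 (739 to 362, -1.03), and the higher ones included the class I molecule H2-K1 (33.6 to 67.1, 0.98). Cell cycle exit and p53 targets had 10 of 23 genes higher (median -0.10), and the retinoblastoma gene Rb1 stood at 10.7 and 21.3 CPM (0.93). The 3 nuclear RNAs, read as a sign of nuclear content, were lower with a median of -0.64, Malat1 at 5216 and 4999.9 CPM (-0.06) changing sign to 0.54 with cells weighted equally.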
